A study of Mus musculus with 4 samples.

Results

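The EGF receptor family and its ligands were followed in sorted mouse hair follicle stem cells (HF-SCs) through 10 genes, taken by symbol from the deposited table where their mean read count was above 0. All 10 met this rule, out of 17044 genes with a mean above 0. They are the receptors *Egfr*, *Erbb2* and *Erbb3*, the ligands *Hbegf*, *Epgn*, *Tgfa*, *Areg*, *Ereg* and *Btc*, and the feedback inhibitor *Errfi1*. The RNA came from 2 control and 2 *miR-205*-induced libraries. The induced mice carried *pTRE2-miR-205*, a transgene that doxycycline switches on through *Krt14-rtTA*, so that the microRNA is raised wherever keratin 14 is expressed and not in HF-SCs alone. The *Krt14-H2b-GFP* allele, which labels nuclei, was used for the sort in both groups. Doxycycline chow ran for 2 d, from postnatal day 42 to day 44. The labels call the control mice untreated, while the methods have both groups fed doxycycline, and the labels give the strain as C57BL/6, while the transgene was made in FVB mice. Back skin was digested with collagenase and then trypsin, and the cells were stained with antibodies before the sort. The sorted cells were live, H2BGFP-high, Sca1-negative, α6-high and CD34-high. The methods describe littermate controls and RNA-seq repeated on pairs of a control and an inducible sample, without saying whether a library is 1 mouse or a pool.

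EGF receptor signaling starts when a membrane-anchored ligand is cut free by a sheddase and binds EGFR on the same or a nearby cell. The occupied receptor pairs with another EGFR or with ERBB2 or ERBB3, and the pair switches on the RAS-MAPK and PI3K arms. ERBB2 binds no known ligand and acts as a partner, while ERBB3 binds neuregulins and has little kinase activity of its own. In skin this pathway is known for keratinocyte growth and survival and for hair shape, since mice that lack TGF-α or carry a weak *Egfr* allele have wavy hair.

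The question set by the design was what *miR-205* induction changes in HF-SCs. The deposited table gives, beside the authors' own comparison, which was not used here, only a mean over the 4 libraries. Whole reads of each library were recovered from that mean for the 7 members below 1000, but the mean alone does not tie a recovered library to a label, and the comparison columns were not used to do so. The libraries are therefore named A to D, from the deepest to the shallowest, no induced and control values are set against each other, and what follows gives levels and the spread between libraries.

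The microRNA and its candidate sites in the family are shown as the link that the annotation gives between the induced gene and these 10 transcripts. The paper captured messages bound by *miR-205* through CLEAR-CLIP, and those data were not used here. A microRNA pairs with messages mainly through its seed, bases 2 to 8 from the 5′ end. The mature *miR-205-5p* has 22 bases, and RefSeq places it on the minus strand of chr1:193507503-193507524 of GRCm38.p6. Its seed is in capitals in the first line below, written 5′ to 3′. The other lines give the 23 bases of each member's site on its message strand, with the 7 bases that pair with the seed in capitals.

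miR-205-5p: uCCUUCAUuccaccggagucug
Erbb3 site: agactccctggagatATGAAGGa
Ereg site: aaaggacaaaggggaATGAAGGt
Tgfa site: ctgtgagccaaatccATGAAGGg
Errfi1 site: tttagtatgaactaaATGAAGGt

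A match to ATGAAGG, read on the message strand only, lay in the longest annotated 3′UTR of 4 of the 10 members. Across 19861 mouse genes with a 3′UTR, 10.4% had such a match. Long 3′UTRs hold more matches, and among 3′UTRs within 25% of the same length the share was 14.97% for *Erbb3*, 26.0% for *Ereg*, 24.8% for *Tgfa* and 11.2% for *Errfi1*. For the 6 members without a match it ran from 1.95% for *Areg*, whose 3′UTR has 253 bases, through 7.79% for *Erbb2*, 9.99% for *Epgn*, 12.0% for *Hbegf* and 16.4% for *Btc* to 37.7% for *Egfr*. The *Erbb3* match lay at base 268 of a 3′UTR of 1845 bases, in exon 28 of 28, at chr10:128006150-128006156 on the minus strand (NCBIM37). The *Ereg* match lay at base 1880 of 3504, in exon 5 of 5, at chr5:91521051-91521057. The *Tgfa* match lay at base 919 of 3202, in exon 6 of 6, at chr6:86222868-86222874. The *Errfi1* match lay near the end of its 3′UTR, at base 1238 of 1390, in exon 4 of 4, at chr4:150242849-150242855. The longest 3′UTR in the family, the 6303 bases of *Egfr*, held no match to bases 2 to 8. The shorter match to bases 2 to 7, TGAAGG, was found in 6 members, adding *Egfr* and *Erbb2*, and in 32.4% of all 3′UTRs. These letters are a description of the annotation and say nothing of binding.

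The sorted population carried the genes listed as bulge HF-SC markers. Not all are particular to the bulge, since the paper marks epithelial cells in general with *Krt5* and *Krt14*. CD34 was itself used for the sort. All 12 markers on the list were above 0, with authors' mean normalized counts of 146090 for *Krt5*, 119883 for *Krt15* and 14575 for *Cd34*. The lower ones, such as *Lgr5* (4432), *Lhx2* (3192), *Cd200* (1474) and *Tcf7l1* (590), were in the range of markers of other cell types, among them the suprabasal *Sbsn* (10749) and *Krt10* (7246), the fibroblast *Col1a1* (5186) and the myeloid *Cd74* (2744). Recovered reads, which cover the genes with a mean up to 1000, summed to between 1912745 and 3337862 per library and make up 20.5% of the summed mean, so the full depth is larger and unknown. The authors' size factors, by which reads were divided to give normalized reads, ran from 0.716 to 1.24.

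By mean normalized count, which is not scaled for transcript length, a receptor, a ligand and an inhibitor were the highest members. *Egfr*, the central receptor, had an authors' mean normalized count of 4204, above 97.0% of the 17044 genes. *Hbegf*, the heparin-binding ligand, reached 3745, and *Errfi1*, whose product binds the EGFR kinase and blocks it, reached 5224, the highest of the 10. The means of *Epgn* (955), *Erbb2* (934) and *Erbb3* (924) lay close together near the 85th percentile. *Tgfa*, which encodes the ligand TGF-α, had 366, and the remaining ligands *Ereg* (132), *Areg* (61.7) and *Btc* (33.9) lay at the 51.7, 41.8 and 35.4 percentiles. In all, 8 of the 10 members were above the median gene. *Egfr*, *Hbegf* and *Errfi1* were too high for their reads to be recovered uniquely, so only the authors' mean is given for them.

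To compare genes with each other, each level was divided by the length of the longest annotated transcript in kilobases. On this scale the order of the authors' means was *Errfi1* with 1717 normalized reads per kb, *Hbegf* with 1578, *Epgn* with 543, *Egfr* with 412, *Erbb2* with 186, *Erbb3* with 154, *Tgfa* with 97.2, *Areg* with 51.5, *Ereg* with 31.8 and *Btc* with 12.1. *Egfr* thus came behind *Epgn* per kb, its longest transcript having 10208 bases against 1760. *Erbb2*, at 180 to 191 per kb in the 4 libraries, did not overlap with *Erbb3*, at 140 to 164, and *Erbb3* did not overlap with *Tgfa*, at 73.3 to 116. Lower in the order the ranges over libraries met, that of *Tgfa* reaching that of *Areg* (37.3 to 75.1), which overlapped with that of *Ereg* (15.5 to 68.6), as this did with that of *Btc* (5.49 to 23.0). Within each of the 4 libraries, however, *Tgfa* was above *Areg*, *Areg* above *Ereg* and *Ereg* above *Btc*, the closest pair being *Areg* and *Ereg* in library C with 75.1 and 68.6 per kb. Whether *Errfi1* differs from *Hbegf*, or *Epgn* from *Egfr*, beyond the spread between libraries could not be told without their reads per library. Divided by the coding length instead, which moves genes with long 3′UTRs up, *Hbegf* came first and *Tgfa* and *Ereg* passed *Erbb2*, and 3 of the 10 genes kept their rank. The order of *Areg* and *Ereg* was then reversed, and without length scaling *Ereg* was above *Areg* in each of the 4 libraries.

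**Figure D1:**
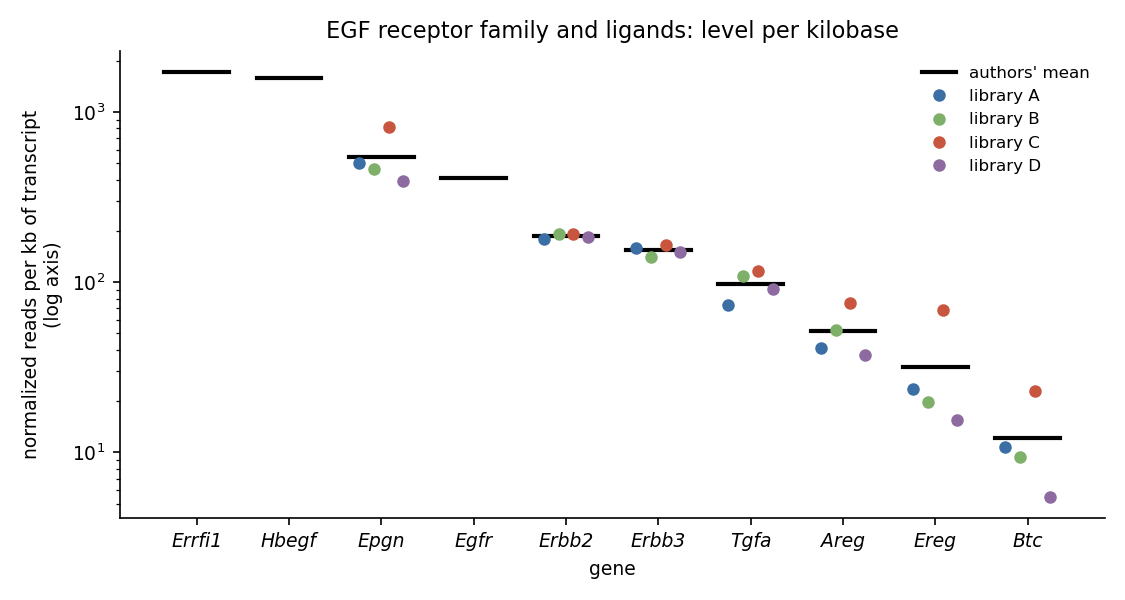
Level of the 10 genes in normalized reads per kilobase of the longest transcript, on a log axis. Black bars are the authors' mean of the 4 libraries and points are single libraries, which were recovered for 7 genes. *Errfi1* and *Hbegf* stand highest at 1717 and 1578 per kb and *Btc* lowest at 12.1, and for *Ereg* and *Btc* the point of library C lies far above the other 3.

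The spread between libraries was narrow for *Erbb2* and *Erbb3* and wider for the ligands. A gene was called different between libraries where the exact 95% Poisson intervals of its highest and its lowest library did not overlap, an interval that covers counting error only. Of the 7 members with recovered reads 6 were called, against a background of 50.7% of the 10238 genes with recovered reads and a mean over 10. Among the 8444 of these with a mean in the range of the 7 members the background was 53.5%. A call says that 2 libraries differ by more than the sampling of reads, and with unlabelled libraries it says nothing of induction.

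*Erbb2* was the most even member. In libraries A, B, C and D it had 902, 959, 956 and 920 normalized reads. The highest was 1.06 times the lowest, below the ratio of most genes of like level, for which the median was 1.23, and its intervals overlapped. *Erbb3* had 958, 844, 989 and 906 normalized reads. Library C was highest and B lowest at a ratio of 1.17, which passed the call by a narrow gap, since the interval of C began at 928 and that of B ended at 898. Without library B the ratio was 1.09 and the call was lost. *Erbb3*, on chr10:128004579-128026708, holds the candidate site at base 268 shown above.

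All 5 ligands with recovered reads were called. *Epgn*, which encodes epigen, a ligand of low affinity, had 878, 808, 1438 and 695 normalized reads in libraries A to D. Library C stood above the other 3, and its interval of 1364 to 1516 did not reach theirs. The ratio of highest to lowest was 2.07, against a median of 1.23 among 2028 genes within 2-fold of its mean. *Ereg*, which encodes epiregulin, a ligand of EGFR and ERBB4, had 97.0, 81.4, 284 and 64.2. Library C, with 274 reads against 120, 96 and 46, was again alone at the top, and the gap to the next library was 0.850 of the whole range. Its ratio of 4.42 was above that of 99.4% of the 3547 genes of like level.

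*Btc*, which encodes betacellulin, another ligand of EGFR and ERBB4, was the lowest member, with 29.9, 26.3, 64.2 and 15.4 normalized reads from 37, 31, 62 and 11 reads. Its intervals were wide, at 49.2 to 82.3 in library C and 7.67 to 27.5 in library D, yet they were apart. *Areg*, which encodes amphiregulin, a ligand of low affinity for EGFR, had 49.3, 62.8, 90.0 and 44.7. For *Areg* the interval of library C (72.1 to 111) overlapped with that of B (49.3 to 78.8) and was apart from those of A and D. The ratio of 2.02 was above that of 74.4% of genes of like level, and the same level gave a median ratio of 1.60.

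*Tgfa* departed from the other ligands. It had 276, 409, 438 and 341 normalized reads, so that library A, and not D, was lowest, and libraries B and C overlapped. Its ratio of 1.59 was above that of 90.8% of genes of like level.

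**Figure D2:**
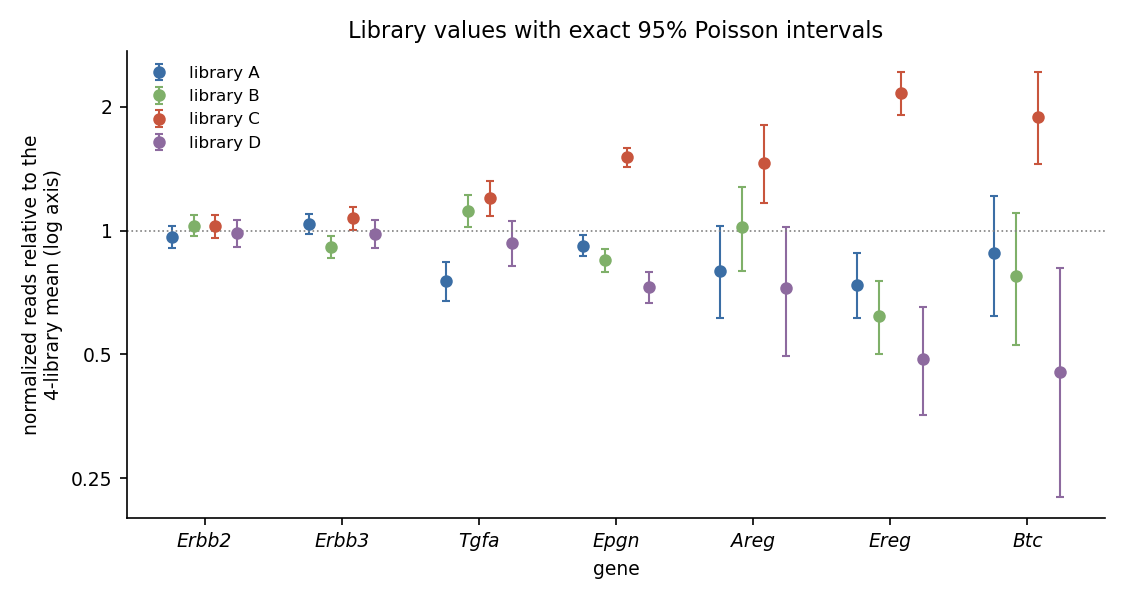
Normalized reads of the 7 members with recovered reads in libraries A to D, relative to their 4-library mean, on a log axis, with bars for the exact 95% Poisson interval. *Erbb2* and *Erbb3* stay near 1, while library C is highest for *Tgfa*, *Epgn*, *Areg*, *Ereg* and *Btc*, with *Ereg* running from 64.2 to 284 normalized reads.

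Library C was the highest for all 6 called members, a pattern noticed after the values were seen. Of all called genes 28.4% were highest in library C. As a share of all 10238 genes tested, 14.4% were called with library C highest, and 14.7% among genes in the members' range. For *Epgn*, *Areg*, *Ereg* and *Btc* library D was also the lowest, which held for 5.23% of genes in that range. Without library C, 3 of the 7 members remained called, *Erbb3*, *Tgfa* and *Epgn*, against 37.3% of all genes tested. The ratio of *Ereg* was then 1.51, that of *Btc* 1.95, that of *Areg* 1.41 and that of *Epgn* 1.26. The 4 genes *Epgn*, *Ereg*, *Areg* and *Btc* lie together on chromosome 5 within 375 kb, at chr5:91456490-91831939, the first 3 on the plus strand and *Btc* on the minus strand. *Tgfa* (chr6:86145420-86225151), *Erbb2* (chr11:98273784-98299030) and *Egfr* (chr11:16652206-16818161) lie elsewhere.

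**Figure D3:**
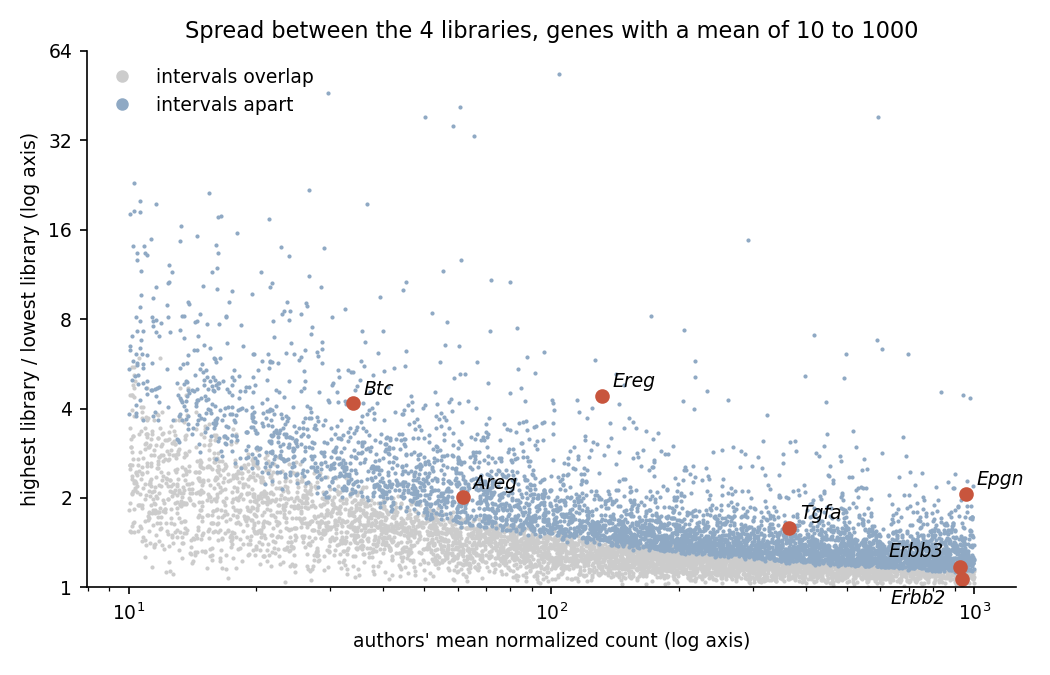
Ratio of the highest to the lowest library against the authors' mean normalized count, both on log axes. Of the 10238 genes with recovered reads and a mean over 10, those with reads in every library are shown. Blue points are shown genes whose 95% intervals are apart, which held for 50.7% of all 10238. The 7 members are in red. *Ereg* at 4.42 and *Epgn* at 2.07 lie near the upper edge for their level and *Erbb2* at 1.06 near the lower edge.

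The summed normalized reads of the 5 ligands were 0.859, 0.897, 1.49 and 0.749 of their mean in libraries A to D, whereas those of *Erbb2* and *Erbb3* together were 1.00, 0.970, 1.05 and 0.982. Within each library *Epgn* made up most of the summed ligand level per kb, at 77.1%, 70.7%, 74.3% and 72.6%, *Hbegf* not being part of this sum. *Tgfa* followed with 11.3%, 16.7%, 10.6% and 16.6%. The share of *Ereg* was 6.23% in library C and 2.85% to 3.62% in the others, while that of *Areg* stayed between 6.35% and 8.06%.

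The summed ligands with recovered reads were highest in library C and lowest in library D. So were the summed markers of melanocytes, mast cells, fibroblasts and suprabasal, sebaceous and endothelial cells. The 6 melanocyte genes on the list summed to 0.862, 0.732, 2.06 and 0.351 of their mean in libraries A to D, and all 5 with a mean over 10 were called, highest in C and lowest in D. The pigment enzyme gene *Dct* had 388, 394, 1041 and 170 normalized reads. The 3 mast cell genes summed to 0.477, 0.780, 2.36 and 0.386, and the 3 suprabasal genes with recovered reads, *Krtdap*, *Lor* and *Ivl*, to 0.821, 0.930, 1.68 and 0.567. *Lor*, which encodes loricrin of the cornified layer, had 422, 623, 1183 and 187. For the sebaceous, endothelial and fibroblast sums library C was at 1.37, 1.34 and 1.24 of the mean. Library D was at 0.579, 0.466 and 0.683. Single genes of these lists were not all highest in library C. Among called genes it was highest for 2 of 3 sebaceous, 1 of 2 endothelial and 1 of 2 fibroblast genes. The sebaceous *Scd3* was highest in library B, with 175, 297, 179 and 36.3 normalized reads in libraries A to D. The endothelial *Cdh5* and the fibroblast *Dcn* were highest in library A, *Dcn* with 821, 584, 799 and 445. The remaining lists of other cell types had another order. The 4 myeloid and Langerhans genes with recovered reads were highest in library B, at 0.724, 1.40, 1.20 and 0.668 of their mean, and the 2 T cell genes, both with a mean under 10, were highest in library D, at 0.844, 0.885, 1.01 and 1.26. Of the 39 markers of other cell types 38 were in the table, all above 0, 25 were tested and 22 were called, 16 of them with library C highest and 17 with library D lowest. None of these defining markers was at 0 in the mean. Their part in the ligands' spread was not tested. In such bulk samples, fewer cells of a type and less RNA per cell cannot be told apart.

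**Figure D4:**
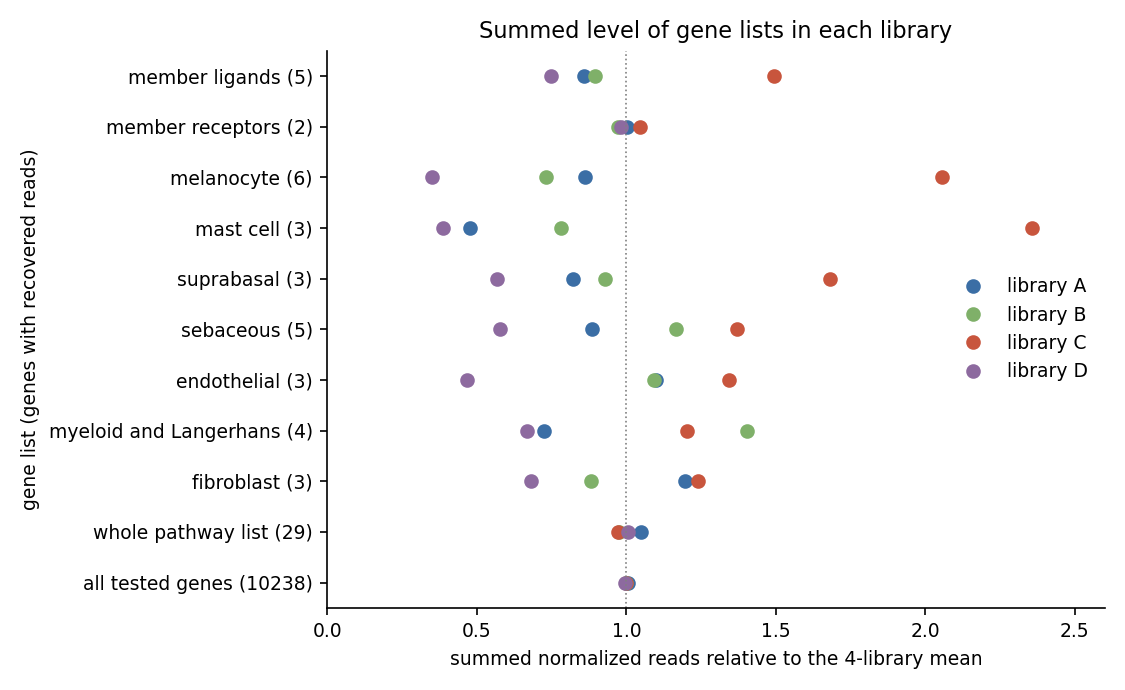
Summed normalized reads of gene lists in libraries A to D, relative to the mean of the 4 libraries, with the number of genes with recovered reads in brackets. Library C is at 1.49 for the ligands, 2.06 for melanocyte and 2.36 for mast cell markers. The receptors *Erbb2* and *Erbb3*, the recovered genes of the rest of the pathway and all tested genes stay near 1. *Egfr* is not among them.

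The rest of the pathway was called about as often as genes in general. Of 57 other genes on the list 56 were above 0, 29 had recovered reads and 26 had a mean over 10. Of these 14 were called, against the background of 50.7%, and library C was highest for 1 of the 14, the adaptor gene *Grb2*, while library A was highest for 8. Their median ratio was 1.27. The median ratio of genes of like level was taken for each of the 26, and the median of these values was 1.24. Of the 26 genes 13 were above the median of genes of their own level. For the 7 members the median ratio was 2.02, that of *Areg*, and the median of the like-level medians was 1.26, that of *Tgfa*. These come from different genes, since the like-level median was 1.60 for *Areg*, 1.39 for *Ereg* and 1.89 for *Btc*. Of the 7 members 5 were above the median of their own level, and the median ratio of all tested genes was 1.39. The summed normalized reads of the 29 genes with recovered reads were 1.05, 0.975, 0.971 and 1.00 of their mean.

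Among the other receptor and ligand genes, the fourth receptor was close to undetected. *Erbb4* had 2 reads, both in library C, and an authors' mean of 0.517. *Egf* itself had 5, 12, 9 and 7 reads. The neuregulin gene *Nrg1*, whose product binds ERBB3 and ERBB4, had 55.8, 73.8, 62.1 and 93.5 normalized reads and was called with library D highest, and *Nrg3* was listed at 0. No other gene of this group had a higher mean than the 71.3 of *Nrg1*, which lay between those of *Areg* and *Ereg*.

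The sheddases were well above the median gene. *Adam17*, the main sheddase of TGF-α, amphiregulin and HB-EGF, had 505, 495, 537 and 484 normalized reads and was not called. *Adam10*, which cuts betacellulin and EGF, had 740, 849, 738 and 616 and was called with library B highest. *Rhbdf1* and *Rhbdf2*, partners that carry ADAM17 to the cell surface, had means of 2622 and 541.

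The feedback inhibitors and early targets spanned a wide range of levels. *Dusp6*, a phosphatase of ERK, had a mean of 12044 and *Lrig1*, which promotes loss of EGF receptors from the surface, had 1755, both too high for recovery. *Dusp5*, another ERK phosphatase, had 816, 466, 628 and 658 normalized reads, at a ratio of 1.75. Of the 9 inhibitors tested 4 were called, near the background of 50.7%. The immediate early genes were among the highest in the table, with means of 49376 for *Fos*, 35524 for *Egr1*, 16010 for *Junb* and 9638 for *Fosl1*. All levels here are those of cells after digestion of the skin and sorting. Whether these steps changed them was not tested. The ETS factor genes *Etv4* and *Etv5*, both targets of ERK signaling, were called in different libraries. *Etv4* had 158, 267, 214 and 162 normalized reads with B highest, and *Etv5* had 271, 220, 213 and 300 with D highest.

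**Figure D5:**
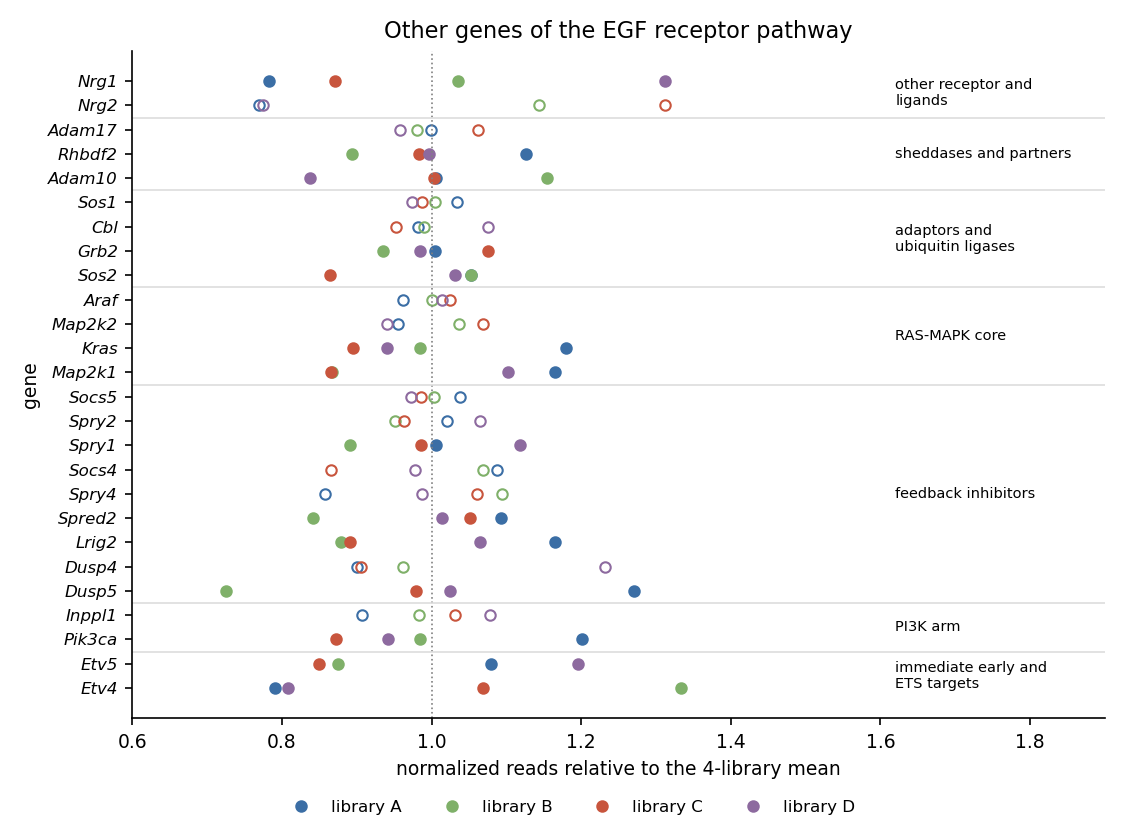
Normalized reads of the 26 other pathway genes with a mean over 10 and recovered reads, relative to their 4-library mean, by role. Filled points mark the 14 called genes and open points the others, and library C is highest among the filled points for *Grb2* alone.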

How the data were processed

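Bulk RNA-seq of sorted HF-SCs was aligned by the authors with HISAT2 2.1.0, converted with SAMtools 1.3.1, counted per gene with HTSeq and normalized with DESeq2. The annotation is not given in the sources used here, and the build is named both NCBI37 and mm10. The deposited table holds a signal, the mean of the 4 libraries' counts after division by size factors. Its 5 other columns are the authors' log2 fold change, standard error, Wald statistic, p-value and adjusted p-value, which were not used. It holds 0 columns of per-sample values, so the planned test of induced against control libraries was not run.

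The mean carries 15 digits, and what 1 read adds to it differs between libraries. The 4 most frequent means gave these steps, which were refined on 1500 genes, and a search then returned the whole reads of each library. All 14591 genes with a mean up to 1000 had exactly 1 solution. The 2453 genes above it were left out, because *Egfr*, *Hbegf* and *Errfi1* had 39, 31 and 80 solutions. Libraries were named by size factor. Intervals are exact Poisson (Garwood) intervals at 95%. The recovery and the call were tested on simulated data.

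Places and 3′UTRs were read from GENCODE vM1 on NCBIM37, without converting coordinates between builds. The microRNA is from RefSeq (GRCm38.p6). *Hbegf* was given no place. All 10 members were named, and other pathway genes were named where their role is described. The members and lists were chosen with earlier results of these data known. Alternatives were a 99% interval, other minimum means, scaling by recovered reads, coding length or no length, other seed matches and leaving out a library. Scripts ran in Python 3.11.15 with numba 0.67.0, scipy 1.17.1, numpy 2.4.6, pandas 2.3.3 and matplotlib 3.10.9.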

Additional observations from a re-analysis of the deposited data

How the results depend on the processing

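No paired analysis was possible because the table has no value for a labelled sample, and for the same reason the replicate block, the left-out labelled replicates and the other count test of induced against control were not run. With a 99% interval 3194 in place of 5189 genes were called, as were 4 of the 7 members, *Erbb3* and *Areg* being lost. With a library left out, which was added after the values were seen, between 3378 and 4302 genes and between 3 and 6 members were called, the lowest for genes without library A and the lowest for members without library C, and 5 members without B, where *Erbb3* was lost. The order of the members per kb kept 3 of 10 ranks with coding length and 5 with no length scaling. It was the same for all 7 members with recovered reads whichever library was left out. Minimum means of 50 or none, with 4314 and 5479 genes called, and scaling by recovered reads, with 5204 genes and 6 members, stayed within 1.5 times the main count. Against genes with a mean over 10, the percentile of *Btc* was 13.3, that of *Areg* 21.9, that of *Ereg* 35.1 and that of *Tgfa* 58.5, and 7 members were above the median. Reads of the highest genes were not recovered, which leaves the spread of *Egfr*, *Hbegf* and *Errfi1* unknown.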

Other observations

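Of the 4 myeloid and Langerhans genes with recovered reads 3 were highest in library B, among them the macrophage gene *Lyz2* with 234, 769, 523 and 272 normalized reads in libraries A to D. The 5 sebaceous genes summed to 0.884, 1.17, 1.37 and 0.579 of their mean, and the 3 endothelial genes to 1.10, 1.09, 1.34 and 0.466. The 3 recovered fibroblast genes summed to 1.19, 0.882, 1.24 and 0.683. *Ly6a*, which encodes the Sca1 protein that the sort selected against, had 146, 159, 179 and 60.0 normalized reads. The bulge marker with recovered reads, *Tcf7l1*, had 518, 569, 604 and 670 and was highest in library D.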
